A study of Mus musculus with 12 samples.

Results

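The subunits of the Mediator complex were followed in HT-22 cells given thyroid hormone, corticosterone or both. A probe was counted as a member when the array annotation gave it a gene symbol of the Med series, Med and a number with or without a final l, or the symbol Cdk8, Cdk19 or Ccnc. This rule found 73 of the 45281 probes on the array, and they belong to 33 of the 19057 genes that the annotation names. HT-22 cells are an immortalized mouse hippocampal line that carries the T antigen of SV40. The cells were treated for 4 h in serum-free medium with 30 nM T3, the active thyroid hormone, with 100 nM CORT, the glucocorticoid corticosterone, with both hormones at these doses (T3+CORT), or with vehicle, and every group held 0.03% DMSO and 0.001% ethanol. Total RNA was read on 3 Illumina whole-genome arrays for each of the 4 groups, 12 in all. The question of the comparisons is whether the hormones, alone or together, change the mRNA levels of these subunits. The labels number 3 replicates in each group, and the methods describe them as repeated hormone treatments without saying whether the cultures were grown and treated on separate occasions. The p values set differences between groups against the spread between these samples.

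Mediator is a large protein complex that carries signals from DNA-bound transcription factors, nuclear hormone receptors among them, to RNA polymerase II at promoters. Structures of the yeast and mammalian complexes divide it into a head and a middle module that contact the polymerase, a tail module that activators contact, the Med14 scaffold that joins them, and a kinase module that binds reversibly. Med1, a middle subunit first described in human cells as a partner of the thyroid hormone receptor, binds ligand-bound nuclear receptors through its LXXLL motifs, and the liganded glucocorticoid receptor can contact it as well.

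The promoters of 4 members are shown because these genes stand for the patterns described further on: Med16 and Med7, which were lower with CORT, and Med12 and Med26, which were higher with CORT or with T3+CORT. Each sequence is the RefSeq window of GRCm38.p6 from 250 bases before to 50 bases after the annotated start, written 5′ to 3′ on the gene's strand. They lie at chr10:79908889-79909188 (Med16, minus strand), chr11:46436697-46436996 (Med7, plus strand, the first of 2 windows of this gene), chrX:101273841-101274140 (Med12, plus strand) and chr8:72548261-72548560 (Med26, minus strand). Capitals mark matches on either strand to AGAACA, the hexamer of the glucocorticoid receptor, or to AGGTCA, that of the thyroid hormone receptor.
Med16: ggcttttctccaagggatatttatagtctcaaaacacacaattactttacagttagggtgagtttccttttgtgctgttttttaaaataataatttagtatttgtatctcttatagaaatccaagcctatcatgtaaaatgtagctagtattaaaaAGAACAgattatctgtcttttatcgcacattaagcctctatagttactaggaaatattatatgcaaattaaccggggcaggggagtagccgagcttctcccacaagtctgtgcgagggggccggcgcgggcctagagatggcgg
Med7: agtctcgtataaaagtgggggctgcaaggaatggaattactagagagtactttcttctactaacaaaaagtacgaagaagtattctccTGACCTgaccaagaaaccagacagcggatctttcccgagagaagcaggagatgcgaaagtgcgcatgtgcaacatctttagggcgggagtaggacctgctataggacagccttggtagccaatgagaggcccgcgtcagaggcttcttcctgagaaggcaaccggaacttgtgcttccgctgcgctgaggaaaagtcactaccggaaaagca
Med12: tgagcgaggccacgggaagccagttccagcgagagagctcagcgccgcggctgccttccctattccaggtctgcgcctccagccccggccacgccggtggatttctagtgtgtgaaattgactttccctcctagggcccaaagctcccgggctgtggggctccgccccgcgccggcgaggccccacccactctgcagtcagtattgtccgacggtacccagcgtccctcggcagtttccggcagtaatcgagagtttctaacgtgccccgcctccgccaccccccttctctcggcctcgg
Med26: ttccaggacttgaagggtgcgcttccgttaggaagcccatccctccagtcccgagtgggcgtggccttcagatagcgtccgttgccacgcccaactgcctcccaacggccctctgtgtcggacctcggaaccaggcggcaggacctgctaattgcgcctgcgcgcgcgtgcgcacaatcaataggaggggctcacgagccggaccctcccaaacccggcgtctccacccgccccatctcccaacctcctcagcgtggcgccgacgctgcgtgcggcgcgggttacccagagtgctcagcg
The Med16 window held AGAACA 94 bases before the start, and the Med7 window held TGACCT, which is AGGTCA read on the other strand, 162 bases before it. Neither hexamer was found in the Med12 and Med26 windows. Windows were listed for 28 of the 33 genes, 32 windows in all. AGAACA was found in 3 of these 32 windows, for 3 genes (Ccnc, Med14 and Med16), and in 19% of all 32851 windows listed. AGGTCA was found in 8 of the 32 windows, for 7 genes (Med6, Med7, Med9, Med10, Med27, Med28 and Med29), and in 16.3% of all windows. These matches are descriptions of the letters in the windows, and receptor binding was not measured here.

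The deposited intensities had been normalized so that the 12 arrays share nearly the same distribution and differ by at most 0.5 at any rank. A background limit of 74.8 was set from the lower side of that distribution, and probes that reached it on 3 or more arrays were tested, 22789 in all. Of the 73 member probes 55 passed, for 30 genes, and 50 of them were at or above the limit on all 12 arrays. Tests were made with limma on log2 intensities, p values were adjusted by the Benjamini-Hochberg method across every tested probe, and a probe is called here when its adjusted p was under 0.05. The 95% interval of a difference between groups was, at the median probe, the estimate plus or minus 0.19 in log2 units. The response to the hormones was checked at 2 targets. Klf9, a target of both receptors, had log2 differences from vehicle of 1.62 with T3, 1.12 with CORT and 2.46 with T3+CORT. Tsc22d3, a glucocorticoid-induced gene, had differences of -0.15, 2.44 and 2.17. The labels call the cells hippocampal neurons. Of 9 neuronal markers 8 had a probe on the array (Nefh had none), and 5 of these passed the limit. Eno2 was the brightest of them, at 123.6 to 176.7 on the 12 arrays. The others that passed, Map2, Tubb3, Syp and Dlg4, read between 64.8 and 94.8. The probes for Rbfox3, Nefl and Nefm did not pass. The intensities of all 8 probes, passing or not, were summed. That sum was 658.2 to 705.6 with T3, 647.8 to 660.0 with CORT, 649.4 to 671.6 with T3+CORT and 632.1 to 710.8 with vehicle. Of the neuronal markers Dlg4 was called lower with T3+CORT (limma, adjusted p = 0.0320), at a mean of 70.2 that is below the limit, against 85.0 with vehicle. Of 8 glial and immune markers 5 passed, Aqp4, Mbp, Aif1, Cx3cr1 and Csf1r, and they read between 60.0 and 96.3, around the limit. Gfap, Olig2 and Ptprc did not pass. All 5 fibroblast markers passed. Their summed intensity was 15716 to 20272 with T3, 15972 to 16881 with CORT, 13589 to 15361 with T3+CORT and 15079 to 17973 with vehicle. Most of this sum came from Vim alone, which read 11149.7 to 16861.4 on the 12 arrays. The other fibroblast markers read between 98.5 (Pdgfrb) and 1654.8 (Col1a1). The part of these markers in the results was not tested. T3 replicate 2 stood apart, as it was the lowest or the highest of the 12 arrays at 25 of the 55 member probes (45.5%, against 35.2% of all tested probes). CORT replicate 1 was the lowest or the highest at 18 of them (32.7%, against 20.7% of all). No label ties an array to a slide, so an effect of the slide was not tested. Changes in RNA per cell and in the number of cells of a kind cannot be told apart in RNA from whole cultures.

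T3 alone changed no Mediator probe past the threshold. The limma test called 0 of 55, against 0.0702% of all tested probes, with 2 at an unadjusted p under 0.05, and the methods' t-test called 0 after adjustment, with 1 at an unadjusted p under 0.05. The log2 differences between T3 and vehicle ran between -0.23 and 0.20, with a median of -0.01. For Med1, the receptor-binding subunit, the probe with the highest mean (ILMN_1220563) read 575.7, 391.2 and 465.9 on T3 arrays, against 450.1, 470.0 and 463.6 on vehicle arrays. The groups overlapped, and the log2 difference was 0.03 with a 95% interval of -0.21 to 0.28 (limma, adjusted p = 0.995).

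CORT changed 7 of the 55 Mediator probes, or 12.7%, against 15.2% of all tested probes. Of these 2 were higher (7.31% of all probes were higher) and 5 lower (7.86% of all). T3+CORT also changed 7 probes, against 15.5% of all, with 3 higher (7.66% of all) and 4 lower (7.83% of all). These shares lie near those of all probes and are no result about Mediator in particular. With single arrays left out the counts were 3 to 13 with CORT (3 without vehicle replicate 3 or CORT replicate 2, 13 without T3 replicate 1 or 2) and 4 to 10 with T3+CORT (4 without any 1 of the vehicle arrays, T3+CORT replicate 1 or T3+CORT replicate 3). The shares of all probes moved too. With CORT they were 9.75% and 10.7% where 3 members were called, and 17.8% and 21% where 13 were. With T3+CORT they were 9.39% to 10.9% where 4 members were called, and 21% where 10 were. The methods' t-test called 0 members in both, with 15 and 12 at an unadjusted p under 0.05. The median member probe was lower by 0.09 on the log2 scale in each comparison (-0.09 against vehicle with CORT and -0.09 with T3+CORT), while the median of all tested probes was 0.00 in both. Without T3+CORT replicate 3 the member median with T3+CORT was -0.0268. Of the member probes 34 of 55 were below 0 with CORT and 33 of 55 with T3+CORT, against 11654 and 11629 of all 22789 probes. Some genes have several probes. At 1 probe per gene the member medians were -0.093 with CORT and -0.065 with T3+CORT. Of 30 genes 19 and 17 were then below 0, against 6015 and 5960 of all 11647 genes. The CORT and T3+CORT comparisons use the same 3 vehicle arrays, so a likeness between them can come in part from those arrays.

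**Figure D1:**
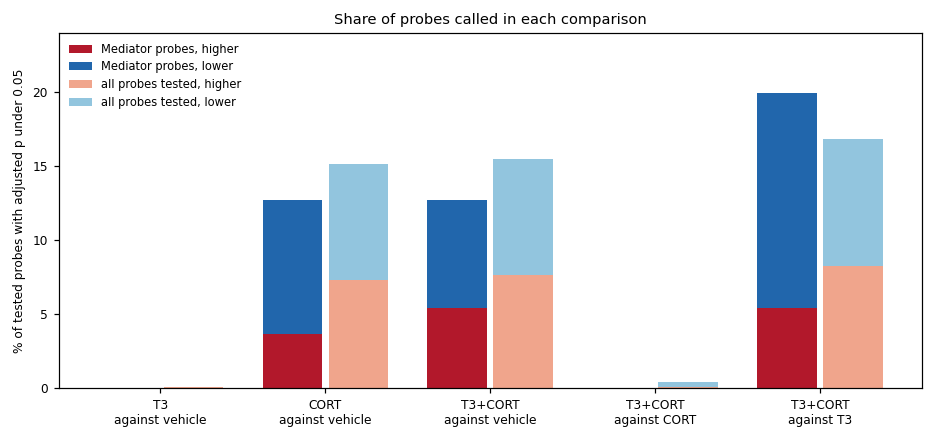
Share of tested probes with an adjusted p under 0.05 (vertical axis, %) in 5 comparisons, with Mediator probes as the left bar and all tested probes as the right bar of each pair, split into higher and lower. Mediator probes were called at 12.7% with CORT and with T3+CORT against vehicle and at 20.0% in T3+CORT against T3, and all probes at 15.2%, 15.5% and 16.8%.

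Med16 and Med24 of the tail were lower with CORT and with T3+CORT. Med16, a tail subunit with 1 probe on the array (ILMN_1213200), read 994.6, 1023.0 and 961.4 on CORT arrays and 856.6, 876.6 and 894.8 on T3+CORT arrays, against 1465.2, 1269.9 and 1307.1 on vehicle arrays. Every array with CORT lay below every vehicle array, and the 3 T3 arrays (1418.2, 1476.1 and 1259.2) overlapped with vehicle. The log2 difference from vehicle was -0.44 with CORT (SE 0.09, limma, adjusted p = 0.00196), which is 0.738 times the vehicle level. With T3+CORT it was -0.62 (SE 0.09, limma, adjusted p = 9.7e-05), or 0.651 times. Of the 55 member probes this was the 1 that passed the study's own thresholds, an unadjusted p under 0.02 with at least a 1.5-fold change, in T3+CORT against vehicle, where 1.81% of all tested probes passed them. It passed by a small margin and did not pass without vehicle replicate 1. With CORT and with T3 alone 0 members passed those thresholds.

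Med24, another tail subunit, read 1298.2, 1298.6 and 1163.6 on CORT arrays and 1313.0, 1495.2 and 1278.7 on T3+CORT arrays at its brighter probe (ILMN_2818189), against 1816.7, 1642.9 and 1656.6 on vehicle arrays. Neither of these groups overlapped with vehicle, while the T3 arrays (1722.5, 1837.6 and 1657.2) did. Its log2 difference was -0.44 with CORT (SE 0.09, limma, adjusted p = 0.00193) and -0.33 with T3+CORT (SE 0.09, limma, adjusted p = 0.0156). The T3+CORT call of Med24 was lost without vehicle replicate 1, T3+CORT replicate 1 or T3+CORT replicate 3, with adjusted p values of 0.0628 to 0.0868. The dimmer Med24 probe (ILMN_1234002), which averaged between 75.2 and 84.7 in the 4 groups and so lay close to the background limit, differed by 0.05 with CORT and by -0.12 with T3+CORT, and neither passed the test.

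The other 3 tail genes were not called in either comparison with vehicle at any probe. Med25, which some activators contact, is named here after its values were seen. At its brightest probe (ILMN_2804622) it read 2111.4, 2215.0 and 2336.2 with CORT and 2117.1, 2503.2 and 2051.1 with T3+CORT, against 1934.2, 1824.5 and 1872.5 with vehicle. Although neither group overlapped with vehicle, the log2 differences of 0.24 and 0.24 missed the threshold (limma, adjusted p = 0.0679 and 0.0703). The other Med25 probes did not follow it: ILMN_2612091 differed by -0.22 with CORT, without overlap, and by 0.02 with T3+CORT, and ILMN_2612090 by 0.00 and 0.07, none of them called. For Med15 and Med23 the differences of 7 tested probes lay between -0.22 and 0.21 in both comparisons.

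**Figure D2:**
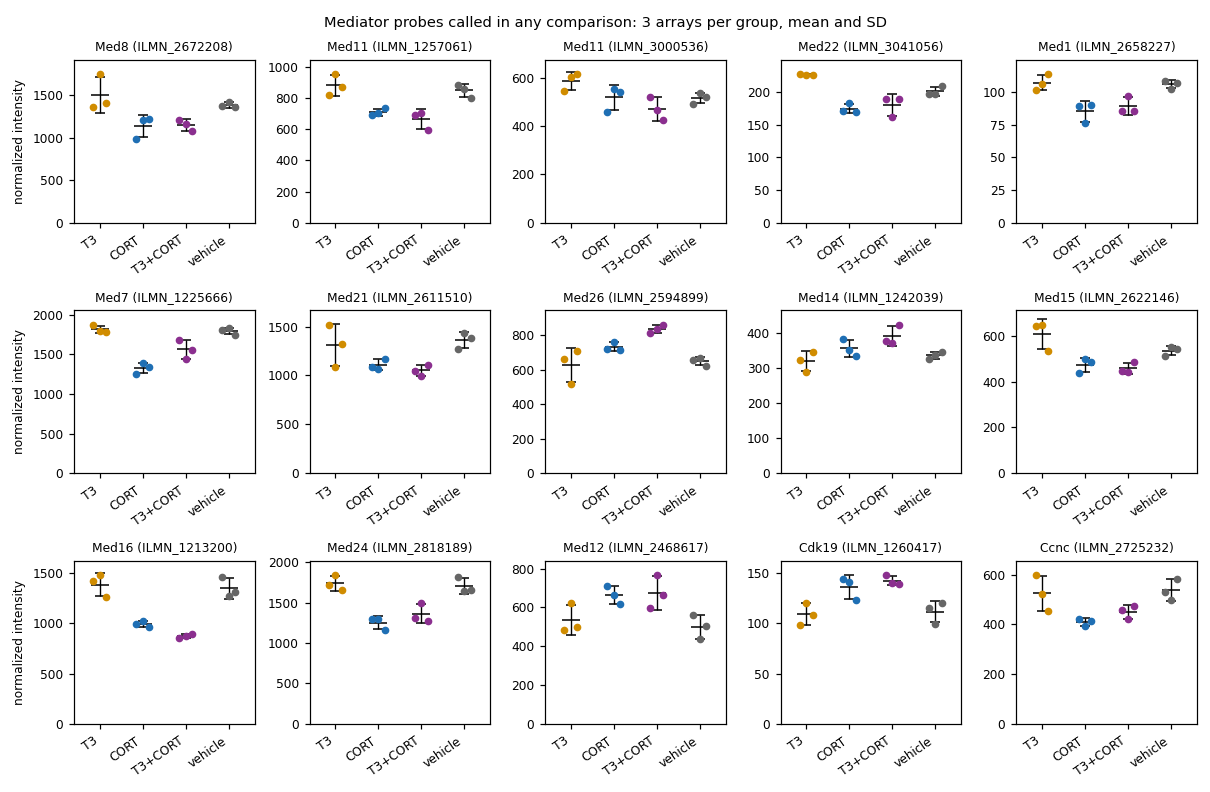
Normalized intensity (vertical axis, linear and from 0, a scale of its own in each panel) of the 15 Mediator probes called in any comparison, with the 3 arrays of T3, CORT, T3+CORT and vehicle as points and the mean and SD as bars. At Med16 the CORT arrays sit between 961.4 and 1023.0 and the T3+CORT arrays between 856.6 and 894.8, all below the vehicle arrays at 1269.9 to 1465.2.

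In the middle module Med7, Med21 and a probe of Med1 were lower and Med26 was higher in at least 1 of these comparisons. Med7, which in yeast forms the hinge of the middle module together with Med21, read 1254.7, 1386.3 and 1342.0 on CORT arrays at ILMN_1225666, against 1801.9, 1832.6 and 1748.5 on vehicle arrays. The groups did not overlap, and the log2 difference was -0.44 (SE 0.08, limma, adjusted p = 0.00119). With T3+CORT the arrays read 1684.0, 1446.8 and 1558.8, again below every vehicle array, but the difference of -0.20 was not called (limma, adjusted p = 0.10). The difference between T3+CORT and CORT for Med7 was 0.23 with a 95% interval of 0.07 to 0.40 and an adjusted p of 0.385 (limma), so the step between these groups did not pass the test.

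Med21, named after its values were seen, read 1050.8, 999.5 and 1111.9 with T3+CORT, against 1267.7, 1433.2 and 1384.9 with vehicle. All T3+CORT arrays were lower than the vehicle arrays, with a log2 difference of -0.37 (SE 0.10, limma, adjusted p = 0.0206). With CORT the Med21 arrays read 1084.0, 1068.4 and 1171.6, and the difference of -0.30 had an adjusted p of 0.0608 (limma). Leaving out vehicle replicate 2 or 3 or T3+CORT replicate 1 or 2 ended the T3+CORT call of Med21, with adjusted p values of 0.0601 to 0.0897.

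Med26, which in human cells brings elongation factors to the complex, moved the other way. It read 815.6, 837.5 and 860.5 with T3+CORT and 723.2, 763.6 and 716.0 with CORT, against 657.7, 670.8 and 623.0 with vehicle, so that neither group overlapped with vehicle. The log2 difference of T3+CORT from vehicle was 0.37 (SE 0.10, limma, adjusted p = 0.0179), and that of CORT, at 0.17, was not called (limma, adjusted p = 0.271). T3+CORT and CORT differed by 0.19 with a 95% interval of -0.02 to 0.40. The Med26 call was lost without vehicle replicate 1 or 3 or T3+CORT replicate 2 or 3, at adjusted p values of 0.0521 to 0.0761.

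Med1 had 4 tested probes, and they did not move together. The dim probe ILMN_2658227 read 89.5, 76.3 and 90.5 with CORT, against 108.2, 102.6 and 107.3 with vehicle, a log2 difference of -0.32 (SE 0.09, limma, adjusted p = 0.0176). These values lie not far above the background limit of 74.8, and the call of this probe was lost without vehicle replicate 1, vehicle replicate 3 or CORT replicate 2 (adjusted p of 0.0602 to 0.104). Its T3+CORT arrays read 85.8, 97.4 and 85.4, a difference of -0.25 (limma, adjusted p = 0.0596). At the brightest Med1 probe (ILMN_1220563) the log2 differences were -0.15 with CORT (limma, adjusted p = 0.458) and -0.17 with T3+CORT (limma, adjusted p = 0.364). The other 2 Med1 probes, ILMN_3106388 and ILMN_1222371, differed from vehicle by -0.09 to 0.10 and were not called.

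The remaining 5 middle genes, Med4, Med9, Med10, Med19 and Med31, were not called in any comparison. Med31, singled out after its values were seen, read 564.0, 598.6 and 515.8 with T3+CORT, against 443.1, 496.5 and 454.7 with CORT, and the groups did not overlap. The log2 difference between T3+CORT and CORT was 0.27, with a 95% interval of 0.08 to 0.46 and an adjusted p of 0.379 (limma).

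Among the head genes Med11 was lower with T3+CORT at its brighter probe. Med11, which pairs with Med22 in the yeast head, read 693.1, 705.0 and 592.1 with T3+CORT and 688.3, 700.2 and 731.9 with CORT at ILMN_1257061, against 884.5, 857.5 and 801.9 with vehicle. Neither group overlapped with vehicle. The log2 difference was -0.36 with T3+CORT (SE 0.09, limma, adjusted p = 0.0116) and -0.26 with CORT (limma, adjusted p = 0.0593). Without vehicle replicate 1 or T3+CORT replicate 3 the T3+CORT call of Med11 was lost, at adjusted p values of 0.0602 and 0.0740. At the second Med11 probe (ILMN_3000536) the differences were 0.00 with CORT and -0.14 with T3+CORT, and neither was called.

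The other 8 head genes with a tested probe were not called against vehicle. At a Med8 probe (ILMN_2672208) the CORT arrays read 984.7, 1205.5 and 1218.8, below the vehicle arrays at 1370.4, 1422.4 and 1362.9, with a log2 difference of -0.29 (limma, adjusted p = 0.0639). The second Med8 probe, ILMN_1222516, differed by -0.03. The 2 Med22 probes differed from vehicle by -0.17 and -0.20 with CORT, without passing the test. Med28, chosen for mention after its values were seen, read 1640.1, 1009.3 and 1671.9 with T3, where replicate 2 was the lowest of all 12 arrays, against 1467.6, 1820.0 and 1666.4 with vehicle. The remaining head genes, Med6, Med18, Med20, Med27 and Med30, had log2 differences of -0.20 to 0.17 in both comparisons.

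**Figure D3:**
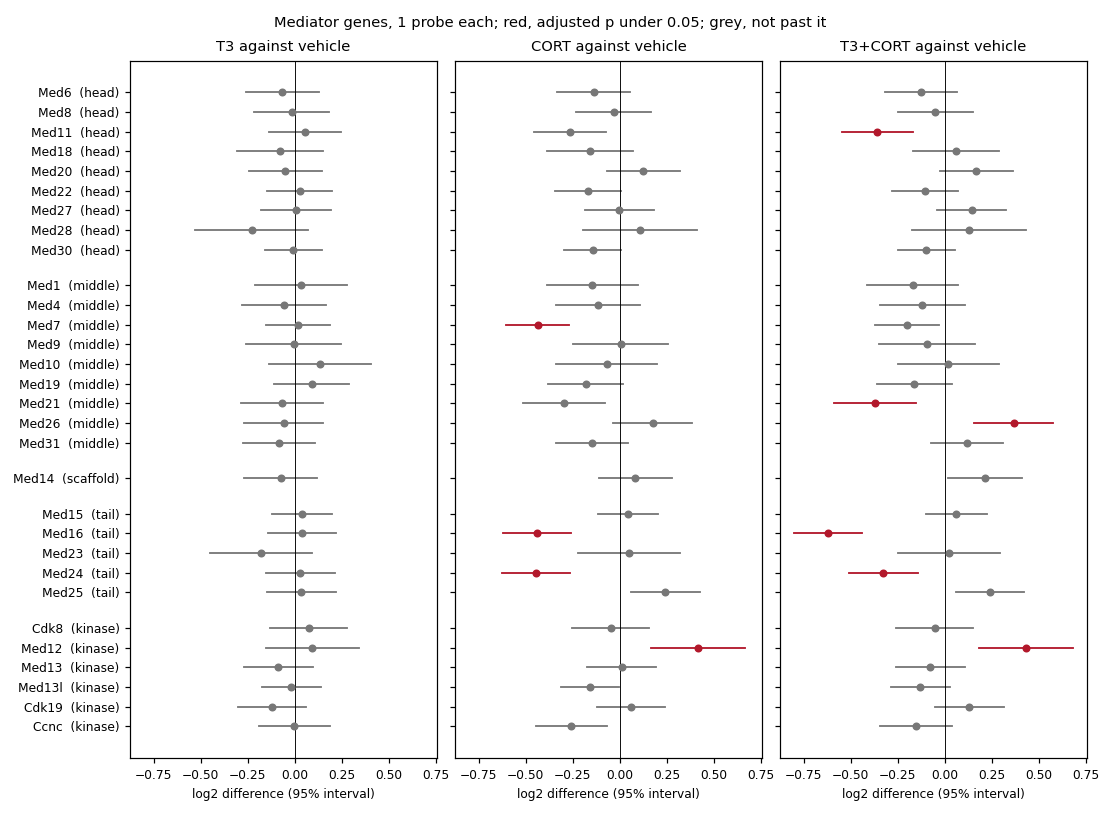
Log2 difference from vehicle with its 95% interval (horizontal axis) for the 30 Mediator genes with a tested probe, each at its probe with the highest mean, for T3, CORT and T3+CORT, with red for an adjusted p under 0.05. No gene is red with T3, Med7, Med16, Med24 and Med12 are red with CORT, and Med11, Med21, Med26, Med16, Med24 and Med12 with T3+CORT.

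In the kinase module Med12 was higher with CORT and with T3+CORT. Med12 activates the kinase of the module together with cyclin C. It read 710.5, 665.5 and 616.2 with CORT and 595.0, 765.1 and 662.8 with T3+CORT, against 560.5, 436.3 and 502.6 with vehicle (ILMN_2468617). All arrays with CORT were above all vehicle arrays, and the T3 arrays (482.4, 622.9 and 497.3) overlapped with vehicle. The log2 difference was 0.42 with CORT (SE 0.12, limma, adjusted p = 0.0229), 1.33 times the vehicle level, and 0.43 with T3+CORT (SE 0.12, limma, adjusted p = 0.0180), 1.35 times. The vehicle arrays of Med12 were spread widely, and the CORT call was lost without vehicle replicate 2 or 3 or CORT replicate 1 or 2 (adjusted p of 0.0625 to 0.128). Without vehicle replicate 2 or 3 or T3+CORT replicate 2 the T3+CORT call was lost too, at adjusted p values of 0.0509 to 0.108.

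Cdk8, the kinase of the module, was not called at its single tested probe. It read 917.9, 813.7 and 871.5 with CORT and 901.5, 898.9 and 794.3 with T3+CORT, against 911.3, 896.7 and 881.5 with vehicle. The 95% interval of the CORT difference ran from -0.25 to 0.16 and that of T3+CORT from -0.26 to 0.15, so a change of Cdk8 within those bounds could not be detected with 3 arrays per group.

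Cdk19, the paralog of Cdk8, was higher with CORT and with T3+CORT at a single dim probe. That probe, ILMN_1260417, read 143.9, 141.3 and 122.9 with CORT and 147.5, 140.1 and 139.4 with T3+CORT, against 114.7, 99.6 and 119.7 with vehicle. Neither group overlapped with vehicle, and the log2 differences were 0.29 (SE 0.10, limma, adjusted p = 0.0486) and 0.36 (SE 0.10, limma, adjusted p = 0.0161). The CORT call of Cdk19 stood on the threshold. It was lost without any 1 of the vehicle arrays, T3 replicate 3, CORT replicate 1 or 2, or any of the T3+CORT arrays, with adjusted p values of 0.0523 to 0.220, with a replicate block (adjusted p = 0.0590) and without the filter on dim probes (0.0707). The T3+CORT call of this probe was lost without vehicle replicate 2 or T3+CORT replicate 1 (adjusted p of 0.0624 and 0.0986). The brightest Cdk19 probe (ILMN_2644664) differed by 0.06 with CORT and 0.13 with T3+CORT, and the third (ILMN_2439313) by -0.03 and -0.25, none of them called.

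Ccnc, which encodes the cyclin partner of Cdk8 and Cdk19, had 4 tested probes, and with CORT each was below vehicle. The probe ILMN_2725232 read 423.0, 392.2 and 412.6 with CORT, against 530.2, 498.8 and 584.3 with vehicle, with no overlap and a log2 difference of -0.39 (SE 0.10, limma, adjusted p = 0.0129). This Ccnc call was lost without vehicle replicate 3 or CORT replicate 2, at adjusted p values of 0.0773 and 0.0554. The brightest Ccnc probe (ILMN_1259110) read 1029.1, 1129.8 and 994.6 with CORT, against 1138.6, 1289.4 and 1347.3 with vehicle, a difference of -0.26 that missed the threshold (limma, adjusted p = 0.0608). The other 2, ILMN_1247482 and ILMN_1239775, differed by -0.25 and -0.17 and were not called. With T3+CORT the 4 Ccnc differences were -0.25, -0.15, -0.11 and 0.10 in the order of these probes, and none was called. Med13 and Med13l, which tie the kinase module to the core of the complex, averaged between 72.1 and 80.6 in the 4 groups, at the background limit, so a change at these probes was hardly measurable.

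Med14, the scaffold, was not called against vehicle at any of its 3 probes. At the brightest (ILMN_1242039) it read 377.4, 371.5 and 423.7 with T3+CORT, against 326.4, 338.3 and 345.5 with vehicle, a log2 difference of 0.21 (limma, adjusted p = 0.136). The other Med14 probes, ILMN_1228189 and ILMN_1232916, differed by -0.12 and -0.09.

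The probes of 1 gene often differed in their calls. Of the 30 genes with a tested probe 16 had 1 such probe, and 5 of these (Med7, Med12, Med16, Med21 and Med26) were called with CORT or with T3+CORT against vehicle. Of the 14 genes with 2 or more tested probes 5 (Med1, Med11, Med24, Cdk19 and Ccnc) were called at some but not all of them, and 0 at all of them. For Med24 the uncalled probe lay close to the background limit, and for Cdk19 the called probe was the dimmest of 3. For Med1 the called probe was dim, but so was an uncalled one, ILMN_1222371, with group means of 88.7 to 98.1. The positions of the probes on the transcripts were not analysed here, so probes of different isoforms cannot be told apart from probes that differ in quality.

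**Figure D4:**
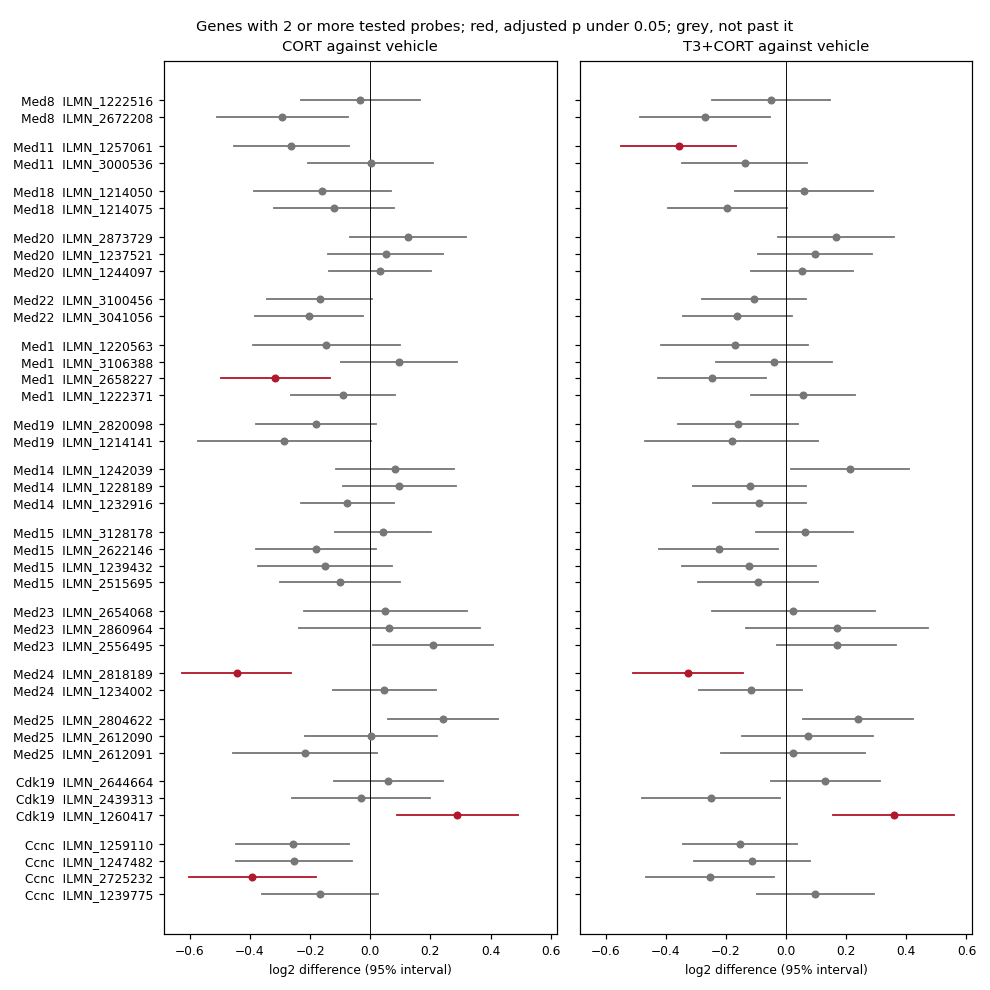
Log2 difference from vehicle with its 95% interval (horizontal axis) for each tested probe of the 14 Mediator genes that have 2 or more, for CORT (left) and T3+CORT (right), with red for an adjusted p under 0.05. At Cdk19 the red probe lies at 0.29 and 0.36 while the others lie between -0.25 and 0.13, and at Ccnc all 4 probes lie below 0 with CORT.

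Counted by gene at the probe with the highest mean, CORT changed 4 of 30 Mediator genes, 1 higher and 3 lower, against 17.7% of the 11647 genes measured so. T3+CORT changed 6 of 30, 2 higher and 4 lower, against 18.4%. By module, T3+CORT changed 1 of 9 head genes, 2 of 9 middle genes, 2 of 5 tail genes and 1 of 6 kinase module genes. With CORT the counts were 0 of 9, 1 of 9, 2 of 5 and 1 of 6. The scaffold gene Med14 was not called in either.

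Adding T3 to CORT changed no Mediator probe past the threshold. Between T3+CORT and CORT the limma test called 0 of 55 probes, against 0.408% of all, with 6 at an unadjusted p under 0.05, and the methods' t-test called 0, with 7 at an unadjusted p under 0.05. The interaction, which is the difference between T3+CORT and CORT less that between T3 and vehicle, was called by limma at 0 of 55 probes, against 0.0746% of all, with 2 at an unadjusted p under 0.05. For Med16, lower in T3+CORT than in CORT with no overlap of the arrays, the difference was -0.18 with a 95% interval of -0.361 to -0.000358 (limma, adjusted p = 0.635), and the interaction was -0.22 (95% interval -0.47 to 0.04). The paper names Med16 among its synergistically regulated genes. Its criteria for synergy, such as an effect past its thresholds with T3+CORT and with neither hormone alone, differ from this interaction.

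Adding CORT to T3 changed 11 of the 55 probes, or 20.0%, against 16.8% of all. Of these 3 were higher (8.27% of all) and 8 lower (8.56% of all). With single arrays left out the count was 7 to 13 (7 without T3+CORT replicate 3), with only the T3 and T3+CORT arrays in the fit it was 6, and the methods' t-test called 0, with 11 at an unadjusted p under 0.05. Med16 averaged 876.0 ± 19.1 in T3+CORT and 1384.5 ± 112.3 in T3 (SD, n = 3 arrays each), with a log2 difference of -0.66 (SE 0.09, limma, adjusted p = 4.8e-05). Med24 differed by -0.35, Med11 by -0.41 and -0.32 at its 2 probes, and the Med1 probe ILMN_2658227 by -0.26. Probes of 3 genes that were not called against vehicle were lower here, with differences of -0.40 for Med15, a tail subunit (ILMN_2622146), -0.38 for Med8 (ILMN_2672208) and -0.33 for Med22 (ILMN_3041056). At this Med15 probe the T3+CORT arrays read 447.1, 442.3 and 486.7, against 644.6, 647.3 and 531.7 with T3. At this Med22 probe they read 189.6, 161.1 and 188.5, against 226.5, 225.4 and 225.9, so that in both genes the groups did not overlap. The brighter probes of Med8, Med15 and Med22 were not called. The Med8 call was lost without T3+CORT replicate 3 (adjusted p = 0.0777, limma) and that of Med22 without T3+CORT replicate 2 (0.0755). The second Med11 probe lost its call without T3 replicate 3 or T3+CORT replicate 2 or 3 (0.0859 to 0.151), and Med1 without any 1 of the vehicle arrays, T3 replicate 3, or T3+CORT replicate 1 or 3 (0.0535 to 0.142). With only the T3 and T3+CORT arrays in the fit the calls of Med8 (0.0538), Med22 (0.0555), the second Med11 probe (0.0870) and Med1 (0.0863) were lost. Without the filter on dim probes those of the second Med11 probe (0.0565) and Med1 (0.0685) were lost, and with a replicate block that of Med1 (0.0518).

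The probes higher in T3+CORT than in T3 were Med26 (0.42), the Cdk19 probe ILMN_1260417 (0.39) and Med14 (0.29 at ILMN_1242039). Med14 read 377.4, 371.5 and 423.7 in T3+CORT, against 324.0, 289.5 and 347.7 in T3, and its adjusted p of 0.0399 (limma) passed narrowly. T3 replicate 2, the array that stood apart, enters this comparison. Without it the Med14 call was lost (adjusted p = 0.127), as were those of Med8 (0.0612), the second Med11 probe (0.0532) and Med1 (0.0575). The Med14 call was also lost without any 1 of the vehicle or T3+CORT arrays, T3 replicate 1 or CORT replicate 2 (0.0516 to 0.165), without the filter on dim probes (0.0731), with array weights (0.114) and with only the compared groups in the fit (0.117).

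The 18 member probes that were not tested read between 45.3 and 82.4 on the 12 arrays, and 4 of them reached the background limit on 1 array. They include all probes of Med12l, a paralog of Med12, of Med17, the central head subunit, and of Med29. The level of these 3 genes is therefore bounded only by the background, and whether they changed could not be measured.

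Genes of the machinery that Mediator works with were counted at the same 1 probe per gene, where 17.7% of all genes were called with CORT and 18.4% with T3+CORT. The lists are small, and their shares were not tested against those of all genes. Of 12 subunits of RNA polymerase II 7 were tested, with 2 higher and 1 lower with CORT (42.9% called) and 1 higher and 0 lower with T3+CORT (14.3%). Polr2l was higher by 0.29 with CORT and by 0.36 with T3+CORT and Polr2f by 0.51 with CORT, while Polr2d differed by -0.27 with CORT. Of 31 general transcription factor genes 25 were tested, with 2 higher and 0 lower with CORT (8%) and 4 higher and 0 lower with T3+CORT (16%). Ercc3, the translocase subunit of TFIIH, was higher by 0.33 with CORT and 0.57 with T3+CORT, and Taf6, a TFIID subunit, by 0.48 with each. Of the 14 tested genes of pause release 1 was higher with CORT (7.14%) and 2 with T3+CORT (14.3%), and 0 were lower. Nelfa, a subunit of the pausing factor NELF, was higher by 0.59 with CORT and 0.50 with T3+CORT, and Hexim1, an inhibitor of the kinase P-TEFb, by 0.35 with T3+CORT. Among 9 genes of cohesin and its regulators, all tested, which hold enhancers and promoters together with Mediator, CORT changed 4 (44.4%). Smc1a (0.43) and Rad21 (0.30) were higher and Wapl (-0.57), the release factor, and Mau2 (-0.30), part of the loader, were lower. The Rad21 probe was dim, at 78.7 to 117.6 on the 12 arrays, and passed narrowly (limma, adjusted p = 0.047). T3+CORT changed 2 of the 9 genes (22.2%), Smc1a (0.52) and Wapl (-0.52). With T3 alone 0 genes of these 4 lists were called. Thra, which encodes the thyroid hormone receptor alpha, was called lower with T3+CORT (limma, adjusted p = 0.0118), but its mean of 67.9 there is below the background limit, against 87.7 with vehicle, so no size is given. Nr3c1, the glucocorticoid receptor gene, read between 72.9 and 88.9 on the 12 arrays, also at the limit. It was not called, and a change of it was hardly measurable.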

How the data were processed

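Normalized intensity values, deposited by the authors for 12 arrays, were the basis of every result. The authors normalized them by rank invariance in BeadStudio, and the values are linear, from 40 to 43897.9. A second deposited table holds raw signals and detection p-values in 24 columns whose names match no sample label, and it was not used, so neither array background nor detection could be taken from it. The background limit of 74.8 is instead the mode of the shared distribution (58.8) plus 3 times the spread of its lower side (5.33), and 19156 probes lay below it on every array. The same annotation that named the members gives 1 gene symbol to 34885 probes, several to 18 and none to 10378.

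In R 4.3.3 with limma 3.58.1, the log2 intensities were fitted with 1 mean for each of the 4 groups (lmFit, then eBayes with a mean-variance trend, 8 residual degrees of freedom), and 6 comparisons were read from that fit, two-sided. The procedure was tested on simulated data. Genes are counted at the probe with the highest mean. The genes named are those with the 12 smallest adjusted p values among called member probes, plus Med1, Med12, Med14, Med16, Cdk8, Cdk19 and Ccnc, with further probes of a gene where the calls disagreed. The members, gene lists and tests were chosen with earlier results of these data known. Alternatives were no filter on dim probes, a stricter limit of 90.8, a normexp background correction with offset 16, cyclic loess and no trend. Others were array weights, a replicate block, a fit of only the groups compared, a Welch t-test on log2 intensities, and leaving out each array. The paper names the Welch test for synergy and no test for its lists against vehicle. Promoter windows are from RefSeq on GRCm38.p6.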

Additional observations from a re-analysis of the deposited data

How the results depend on the processing

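The counts of called Mediator probes depended on how the spread between arrays was estimated, and so did the shares of all probes called. No called result changed direction under any alternative run. With array weights the counts were 13 for CORT and 13 for T3+CORT against vehicle (23.6% each, against 22.9% and 23.8% of all probes). With only the compared groups in the fit the counts were 14, 13 and, for T3+CORT against T3, 6. These were 25.5%, 23.6% and 10.9% of the members, against 21.9%, 23.7% and 9.33% of all probes. With the Welch t-test all 3 counts were 0, where 0.391%, 0.377% and 0.0176% of all probes were called. The 25 calls of named probes had adjusted p values of 0.0688 to 0.359 in the Welch t-test. Leaving out 1 array gave 3 to 13 calls for CORT (3 without vehicle replicate 3 or CORT replicate 2, 13 without T3 replicate 1 or 2). It gave 4 to 10 for T3+CORT (4 without any 1 of the vehicle arrays, T3+CORT replicate 1 or T3+CORT replicate 3) and 7 to 13 for T3+CORT against T3 (7 without T3+CORT replicate 3). The shares of all probes called then ran from 9.1% to 21% for CORT and from 9.39% to 21% for T3+CORT. For T3+CORT against T3 they ran from 11.3% to 17%. The count at the study's thresholds was 0 to 1, and it was 0 without vehicle replicate 1. The median log2 difference of the members for CORT was -0.122 with the normexp background correction. With 1 array left out the median for T3+CORT lay between -0.110 and -0.0268 (-0.0268 without T3+CORT replicate 3), that for T3+CORT against CORT between 0.0143 and 0.0530 (0.0530 without T3+CORT replicate 3), and that of the interaction between 0.00954 and 0.0621 (0.0161 without CORT replicate 1, 0.00954 without T3+CORT replicate 2). Of the 25 calls of named probes 10 were lost in no setting but the t-test: those of Med7, Med16 and Med24 with CORT, of Med16 with T3+CORT, and of Med16, Med24, Med26, Cdk19, Med11 (ILMN_1257061) and Med15 in T3+CORT against T3. The other 15 were lost when some array was left out. The 3 samples per group limit the precision of every value here, and at probes near the background limit a change is understated.

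The labels do not say whether arrays with the same replicate number belong together, and the values below do not settle it. Over 18 pairs of arrays with the same number, the correlation of their deviations from the group means ran from -0.219 to 0.403, with 6 pairs over 0.1, and 5 of 12 arrays correlated best with an array of their own number. With the number as a replicate block the counts were 6 for CORT, 7 for T3+CORT and 11 for T3+CORT against T3, of which 10 were the same probes as without the block (Med1 ILMN_2658227 was lost). The shares of all probes called were then 15.6%, 16% and 17.3%.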
